A study of Rattus norvegicus with 97 samples.

Results

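GABA synthesis, transport and GABA-B receptors were followed through 9 genes: Gad1, Gad2, Slc32a1, Slc6a11, Slc6a13, Abat, Aldh5a1, Gabbr1 and Gabbr2. All probe sets that carry 1 of these symbols alone in the platform annotation were taken, which gave 19 of the 31042 probe sets tested and 9 of the 14217 genes with a symbol. No measured value entered that choice, although earlier results of these data were known when it was made. RNA from the shell of the nucleus accumbens, the part of the ventral striatum tied to reward, had been hybridised to 97 Affymetrix rat arrays, 1 per rat, and the values are log2 RMA signals. The rats belonged to 10 selectively bred lines. The lines P, HAD1, HAD2, AA and sP were bred for high alcohol consumption, and NP, LAD1, LAD2, ANA and sNP are their partners, in that order, bred for low consumption. There were 10 rats per line, except 9 each in LAD1, sP and sNP. The labels give no treatment, age or sex, and no allele that the groups share. Each direction was bred once per pair, so that a difference within a pair can come from selection or from drift, and these cannot be told apart.

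GABA is the main inhibitory transmitter of the brain, and in the striatum nearly all neurons release it, medium spiny projection neurons foremost. Glutamate decarboxylases, encoded by Gad1 and Gad2, make GABA from glutamate, and the product of Slc32a1 loads it into synaptic vesicles. After release, transporters such as those encoded by Slc6a11 and Slc6a13 take GABA up, and the enzymes encoded by Abat and Aldh5a1 degrade it in mitochondria to succinate. GABA-B receptors are G protein coupled receptors built of a Gabbr1 subunit, which binds GABA, and a Gabbr2 subunit, which couples to the G protein.

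Before the comparisons, 8 arrays stood apart from their line on a score built from the 50 probe sets that best part the 2 lines of a pair in the other rats. The score is 0 at the low line's median and 1 at the high line's median. The high-line arrays P 9, HAD1 28, AA 19 and sP 4 scored 0.463, 0.00493, -0.039 and 0.399, and the low-line arrays NP 9, LAD1 37, ANA 20 and sNP 4 scored 1.05, 0.988, 0.93 and 0.483. They were kept, and the calls of line differences in member and pathway genes that rest on them are given with and without them. Other values, among them levels, variance shares and most correlations, are with all arrays unless said otherwise. Striatal markers were bright, with means over all arrays of 13.14 for Drd1, 10.97 for Drd2 and 14.08 for Penk, on the log2 scale. Cortical markers were dim on average, at 6.29 for Slc17a7 and 5.45 for Neurod6, but not evenly so between rats. The mean level of 5 cortical markers had a median of 5.99 in AA rats and reached 8.36 in the highest. Its median and highest value were 6.55 and 7.35 in HAD1, 6.11 and 7.30 in LAD1, and 6.25 and 7.06 in HAD2 rats. In bulk tissue fewer cells of a type and less RNA per cell cannot be told apart.

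Gad1, the decarboxylase that makes most GABA in the cell body and axon, was read by a bright probe set, 1368344_at. Its line means ran only between 14.23 in HAD2 and 14.50 in sP on the log2 scale, and just 1 of the 9 gaps between neighbouring lines exceeded their SD, that between sP and sNP. A second Gad1 probe set, 1370760_a_at, spread far wider, with line means between 5.42 in LAD1 and 8.61 in ANA. Gad2, the decarboxylase tied to synaptic vesicles, is the one member gene whose only probe set differed with the same sign in every pair, as described below. The sequences before the start of transcription are shown for Gad1, Gad2 and Slc32a1, the 3 genes of synthesis and vesicle loading, since the levels of Gad1 and Gad2 had an r near 0 between rats. They are the 250 bases before the annotated start, taken from RefSeq on build GRCr8 (no build is named for the array), on the + strand, at chr3:75777202-75777451, chr17:89671468-89671717 and chr3:167686995-167687244. Capitals mark matches, on either strand, to TATAAA (the TATA box), TGACG (a core of the cAMP response element, CRE) or GGGCGG (the GC box).
Gad1: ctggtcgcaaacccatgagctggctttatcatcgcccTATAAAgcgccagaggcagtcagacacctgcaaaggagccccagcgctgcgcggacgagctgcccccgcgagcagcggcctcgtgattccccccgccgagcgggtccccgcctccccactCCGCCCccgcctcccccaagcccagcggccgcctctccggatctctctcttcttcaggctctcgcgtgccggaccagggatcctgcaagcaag
Gad2: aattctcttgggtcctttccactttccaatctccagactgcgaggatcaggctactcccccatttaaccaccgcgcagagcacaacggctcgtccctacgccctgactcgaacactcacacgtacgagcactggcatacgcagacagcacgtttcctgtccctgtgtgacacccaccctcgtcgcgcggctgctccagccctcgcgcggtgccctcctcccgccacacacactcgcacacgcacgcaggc
Slc32a1: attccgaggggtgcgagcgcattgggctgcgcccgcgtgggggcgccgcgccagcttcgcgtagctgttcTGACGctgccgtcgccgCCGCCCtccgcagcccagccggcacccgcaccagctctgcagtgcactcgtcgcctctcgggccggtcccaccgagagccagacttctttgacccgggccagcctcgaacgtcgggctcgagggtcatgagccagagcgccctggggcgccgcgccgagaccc

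In these windows Gad1 held 1 TATA box and 1 GC box, Slc32a1 held 1 CRE core and 1 GC box, and Gad2 held none of the 3 motifs. Of the 33469 promoters in the RefSeq table, 12.9% held a TATA box, 18.2% a CRE core and 30.5% a GC box in the same window. The motifs share no letters where they matched. All 3 windows were rich in G and C, at 68.4% for Gad1, 62.0% for Gad2 and 73.6% for Slc32a1, beside a median of 51.2% over all promoters. Of the 9 members 7 were in the table, and the windows of Slc6a11 and Gabbr1 each held 4 GC boxes. These matches describe letters in a window, and no array value bears on them.

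**Figure D1:**
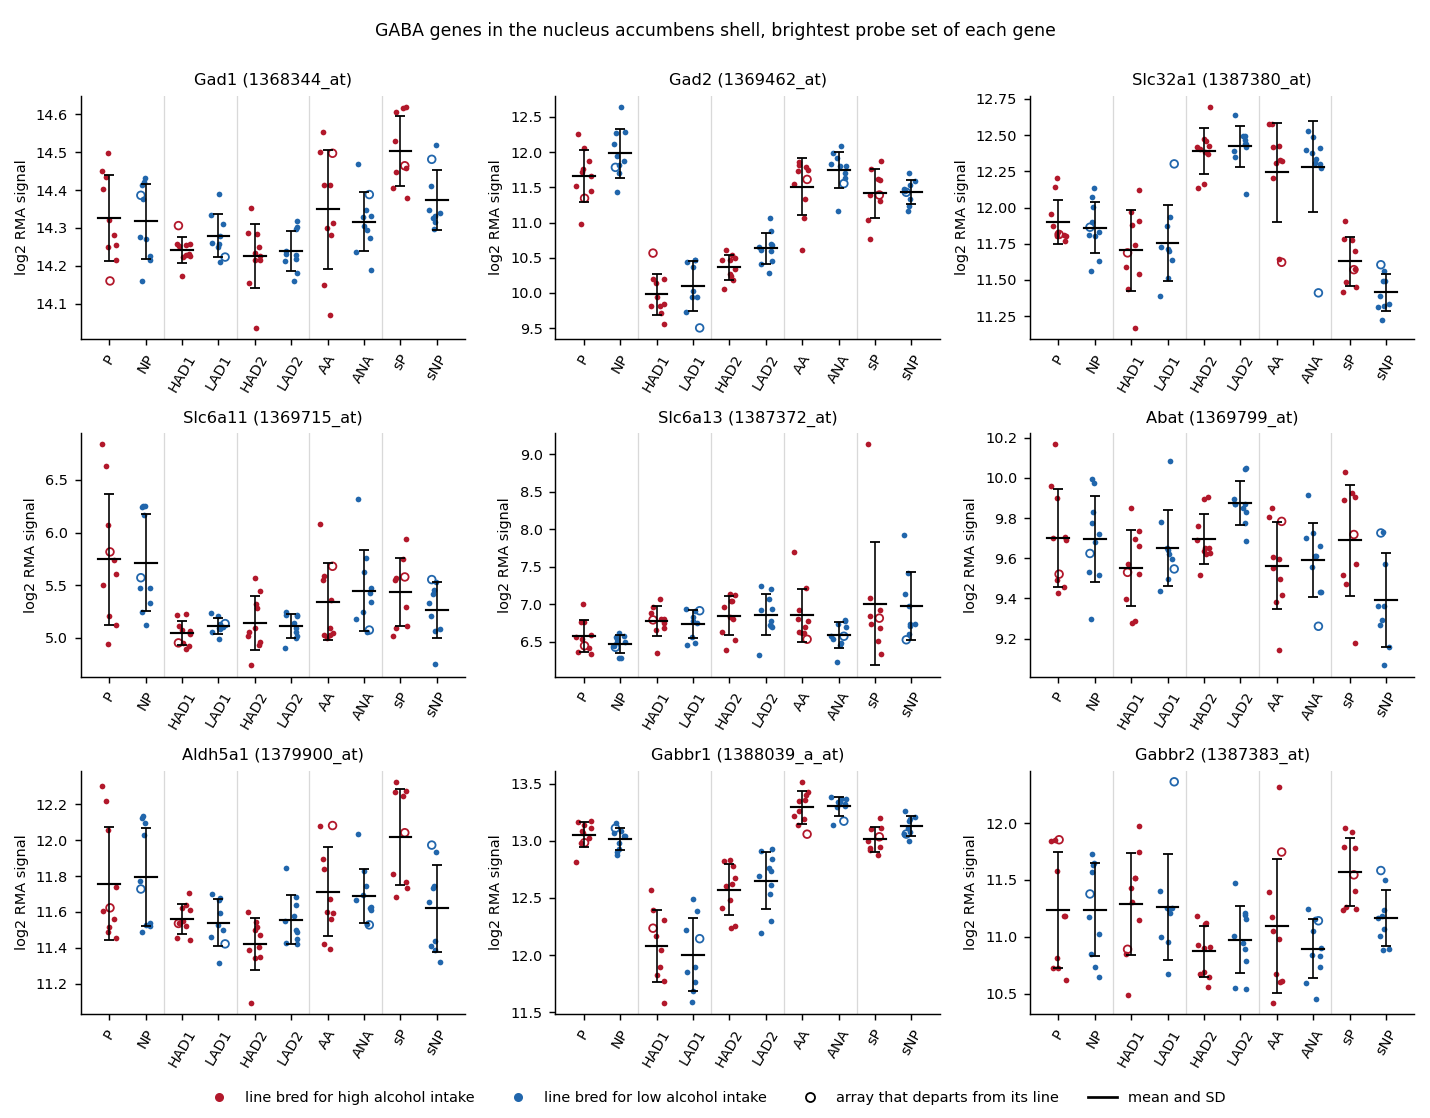
Log2 RMA signal (y axis) of the brightest probe set of each of the 9 genes in the 10 lines (x axis). Points are rats, open points are the 8 arrays that depart from their line, and bars are the mean and SD. Gad1, Gad2, Slc6a11, Aldh5a1 and Gabbr1 have their lowest line means in the 4 HAD and LAD lines. Slc6a13 has 1 sP rat at 9.13, far above the other 8.

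Most of the variation in these probe sets lay between line pairs and not between the 2 lines of a pair. The median share of variance between pairs was 63.1% over the 19 probe sets and 69.7% over all probe sets, whereas the 2 lines within a pair took 2.21% and 1.83%. The rest was variation among rats of a line, with a median of 34.5% for the members and 27.3% for all. The 4 HAD and LAD lines were the lowest of the 10 for 7 of the 19 probe sets, beside 20.6% of all probe sets, and the highest for 3, beside 38.3% of all. Those pairs also stood apart in RNA quality. The 3' minus 5' difference of the Gapdh control probe sets, which grows when the copied RNA is short, averaged 4.71 in HAD1, 4.89 in LAD1, 2.91 in HAD2 and 2.83 in LAD2, against 0.0869 to 0.468 in the other 6 lines. Line pair and array processing therefore cannot be told apart for these levels.

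The gap was widest for 1 of the 5 probe sets of Gabbr1. For 1369371_a_at the 4 HAD and LAD lines had means between 5.63 and 6.25, while the other 6 lines had means between 9.51 and 10.06, a gap of 3.25 between LAD2 and sP. For 1369372_at the order was turned round, with an average of 6.67 in the HAD and LAD lines and 5.86 in the other lines. By contrast, 1375720_at differed little, at 12.53 and 12.45. Probe sets of 1 gene thus gave opposite orders across pairs. For Gad2 the same averages were 10.27 and 11.63, for Gad1 1370760_a_at they were 5.90 and 8.29, and for Abat 1391365_at they were 9.11 and 8.23.

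**Figure D2:**
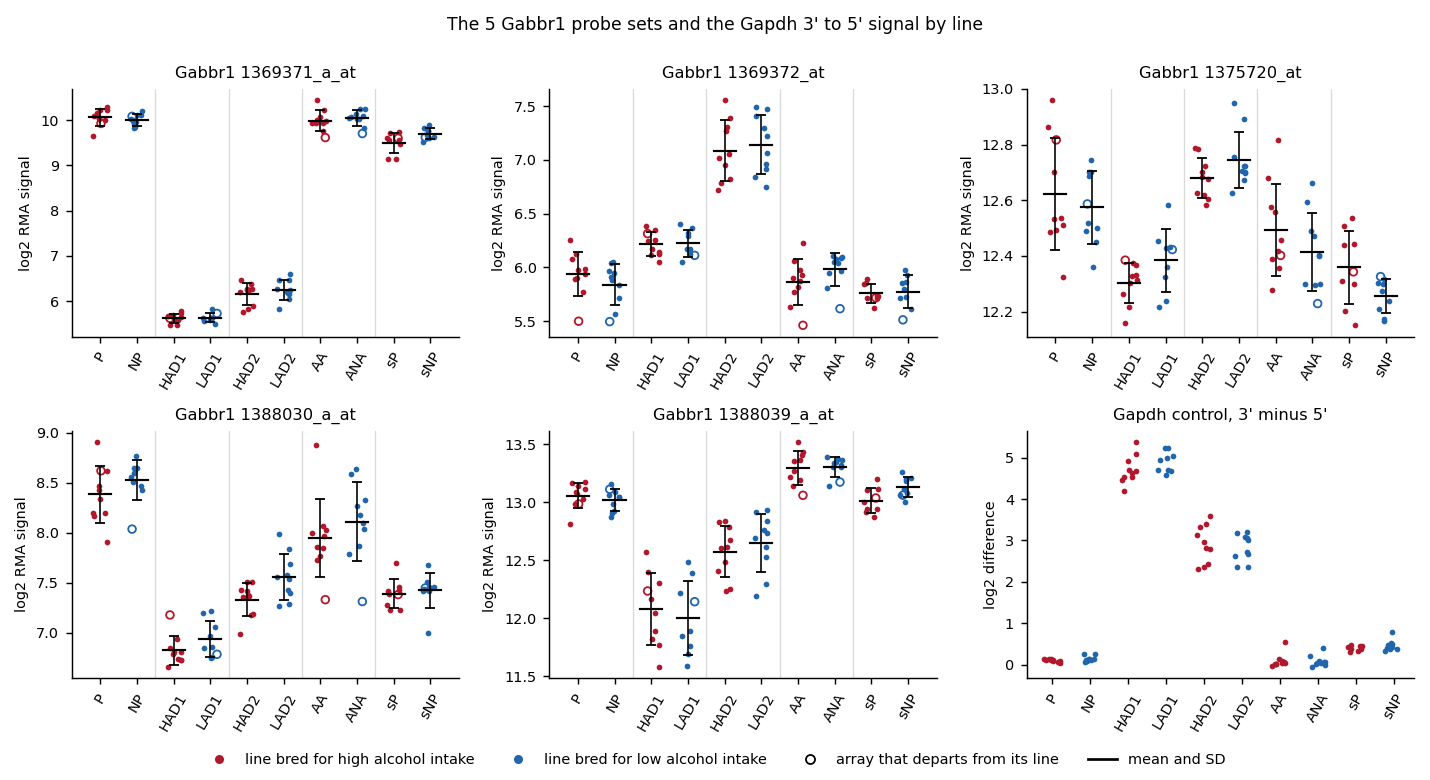
Log2 RMA signal (y axis) of the 5 Gabbr1 probe sets, and the 3' minus 5' difference of the Gapdh controls, by line (x axis); points are rats, bars the mean and SD, open points departing arrays (not marked in the Gapdh panel). Probe set 1369371_a_at is lowest and 1369372_at highest in the HAD and LAD lines, whose Gapdh difference averages 2.83 or more.

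The question of each pair is whether the line bred for high intake differs from its partner. In P against NP, 0 of 19 probe sets were called by limma at an adjusted p under 0.05, beside 1.05% of all probe sets, and 1 had an unadjusted p under 0.05, beside 7.63%. In HAD1 against LAD1 none was called, beside 1.2%, and 0 had an unadjusted p under 0.05, beside 9.89%. Neither pair thus had a GABA gene past the threshold. In HAD2 against LAD2 the count was again 0, beside 4.6%, and 4 had an unadjusted p under 0.05, beside 14%. In AA against ANA 0 were called, beside 2.35%, and 2 had an unadjusted p under 0.05, beside 9.74%. In sP against sNP 3 were called, beside 12.9% of all probe sets, and all 3 were higher in sP, beside 7.08% called higher, and 7 had an unadjusted p under 0.05, beside 30.3%. These counts are near the background of each pair. The median difference of the 19 was 0.01 in P minus NP, -0.04 in HAD1 minus LAD1, -0.07 in HAD2 minus LAD2, -0.01 in AA minus ANA and 0.10 in sP minus sNP, where that of all probe sets lay within 0.01 of 0 in each pair. The median SE of the 19 was between 0.0686 and 0.0889, so that differences of about the size of the median are not resolved.

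**Figure D3:**
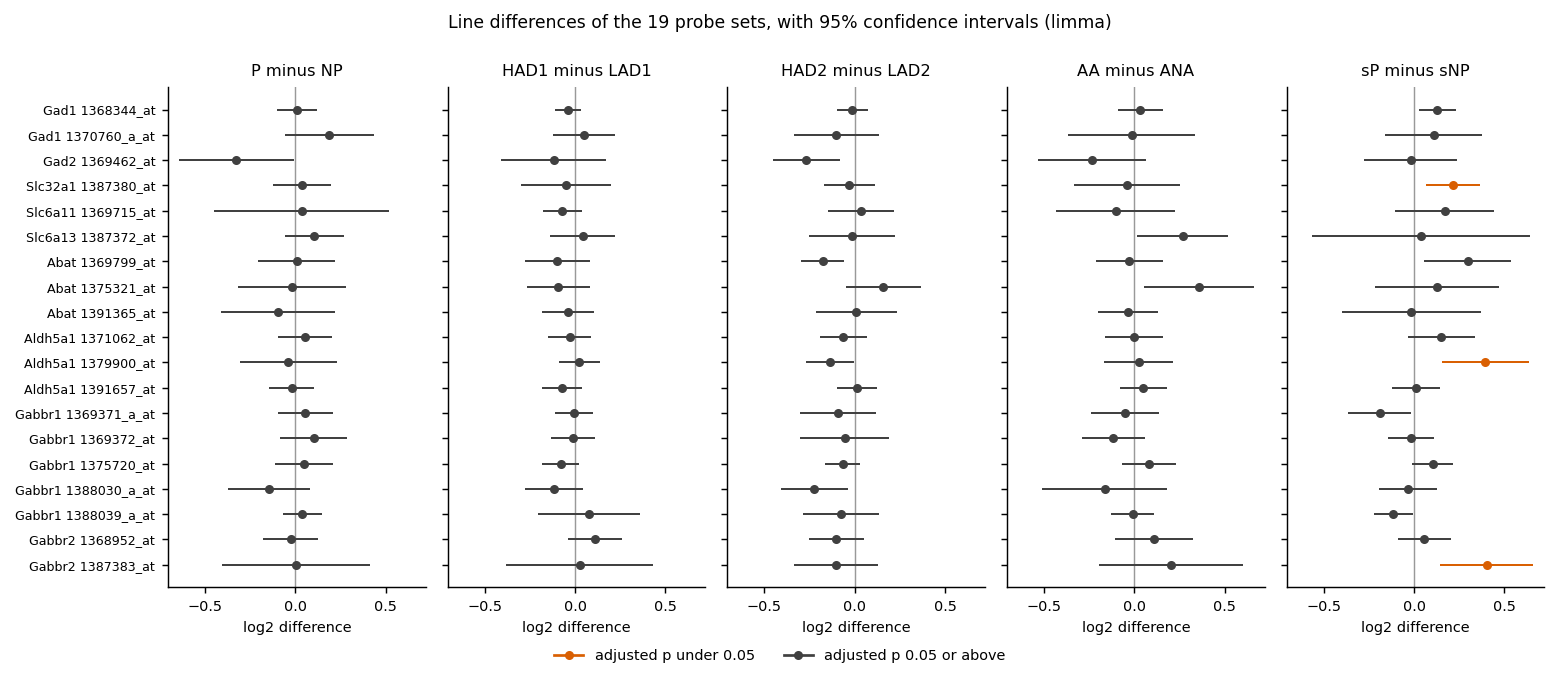
Log2 difference (x axis, line bred for high intake minus its partner) of the 19 probe sets (y axis) in the 5 pairs, with 95% confidence intervals from limma. Orange marks the 3 probe sets with an adjusted p under 0.05, all in sP minus sNP, and the points of Gad2 lie left of 0 in all 5 panels.

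Gad2 had a negative difference, high line minus partner, in all 5 pairs. Its lowest, median and highest values were 10.97, 11.69 and 12.26 in P rats, against 11.43, 11.91 and 12.64 in NP rats. In HAD1 rats they were 9.57, 9.89 and 10.57, against 9.50, 10.03 and 10.47 in LAD1 rats. In both pairs the high line's median was the lower one, and the ranges overlapped over most of their length. Gad2 ran at 10.05, 10.40 and 10.61 in HAD2 rats, against 10.29, 10.63 and 11.06 in LAD2 rats. It ran at 10.61, 11.67 and 11.86 in AA rats, against 11.16, 11.80 and 12.09 in ANA rats. The sP values were 10.77, 11.39 and 11.88, against 11.16, 11.45 and 11.71 in sNP rats. No pair separated without overlap, and the sP and sNP medians nearly coincided.

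The Gad2 differences were -0.33 ± 0.15 in P minus NP (SE, adjusted p = 0.607), -0.12 ± 0.14 in HAD1 minus LAD1, -0.27 ± 0.09 in HAD2 minus LAD2 (adjusted p = 0.0896), -0.24 ± 0.14 in AA minus ANA and -0.02 ± 0.12 in sP minus sNP. None passed in its own pair. Averaged over the 5 pairs, the limma fit with 1 mean per line gave -0.19 ± 0.06, with an unadjusted p of 0.00205 and an adjusted p of 0.0565, just short of the threshold. Without the 8 departing arrays it was -0.23 ± 0.06 with an adjusted p of 0.0167, which passes. In HAD1 minus LAD1 the difference without them was -0.26, since LAD1 37 had the lowest Gad2 value of LAD1 and HAD1 28 the highest of HAD1. With the 5 differences as the replicates, limma gave an unadjusted p of 0.00726 and an adjusted p of 0.948. In that setting 0 of all 31042 probe sets were called, so that it cannot set 1 gene apart from another. The 5 differences were not shown to be unequal (interaction adjusted p = 0.784). Cell markers moved in the same average, in which all 15 medium spiny neuron markers had negative differences (median -0.19) and all 9 oligodendrocyte markers too (median -0.10), although none of these was called. Of 9 microglia markers 3 were called lower, and of 8 endothelial markers 2, beside 1.59% of all probe sets. Of 14 markers of meninges, fibroblasts and mural cells 1 was called higher, beside 1.78%. Among rats of a line, Gad2 had r = -0.32 with the mean level of the oligodendrocyte markers. The part of these cells in the Gad2 average was not tested. With a marker index as a covariate, the spiny neuron level minus that of pallidal and septal markers, the Gad2 average was -0.16 with an adjusted p of 0.12.

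One of the 5 Gabbr1 probe sets, 1388030_a_at, also had 5 negative differences, at -0.15 in P minus NP, -0.12 in HAD1 minus LAD1, -0.23 in HAD2 minus LAD2, -0.16 in AA minus ANA and -0.03 in sP minus sNP. Its average was -0.14 ± 0.05 with an adjusted p of 0.134, and -0.17 ± 0.05 with an adjusted p of 0.0154 without the departing arrays. The other 4 Gabbr1 probe sets averaged between -0.06 and 0.02, with adjusted p of 0.506 or more. Of all probe sets, 3.24% were lower in the high line of all 5 pairs, against 2 of the 19 here. In the average 0 of 19 were called, beside 3.37% of all, and 2 had an unadjusted p under 0.05, beside 14.1%. Without the departing arrays 2 of 19 were called, beside 4.94%.

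The sP and sNP rats gave the 3 calls. Slc32a1, the vesicular GABA transporter, ranged over 11.42, 11.58 and 11.90 (lowest, median and highest) in sP rats, against 11.22, 11.39 and 11.60 in sNP rats. It rose in sP by 0.22 ± 0.07 on the log2 scale, a ratio of 1.16 (limma, adjusted p = 0.0477). The call ended with each array centred on its median (adjusted p = 0.0646) and with the spread shared over 10 lines (0.186). The lines overlapped, with the sP median close to the highest sNP value.

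Aldh5a1, which encodes the dehydrogenase of the last step of GABA breakdown, had 11.68, 12.04 and 12.33 in sP rats, against 11.32, 11.65 and 11.97 in sNP rats for probe set 1379900_at. It was higher in sP by 0.40 ± 0.11 (adjusted p = 0.0339), although the lines again overlapped. Its other probe sets, 1371062_at and 1391657_at, differed by 0.15 and 0.01, with adjusted p of 0.255 and 0.937. Gabbr2, the coupling subunit of the receptor, had 11.24, 11.55 and 11.96 in sP rats, against 10.88, 11.16 and 11.58 in sNP rats for 1387383_at. It was higher in sP by 0.40 ± 0.12 (adjusted p = 0.0377), a call that ended with the shared spread (0.147). The dimmer Gabbr2 probe set, 1368952_at, differed by 0.06 with an adjusted p of 0.634.

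Without sP 4 and sNP 4 the same 3 differences were 0.25, 0.44 and 0.46, with adjusted p of 0.0356, 0.0263 and 0.0262, beside 15% of all probe sets called. A pair of further genes of the pathway had sizeable differences that did not pass. Gad1 1368344_at differed by 0.13 ± 0.05 (adjusted p = 0.064) and Abat 1369799_at, the GABA transaminase, by 0.30 ± 0.11 (adjusted p = 0.0819). Gabbr1 had negative differences on 2 of its probe sets, -0.19 for 1369371_a_at and -0.12 for 1388039_a_at, with adjusted p of 0.114 and 0.121. Slc6a11, the transporter of astrocytes, differed by 0.17 ± 0.13 with an adjusted p of 0.41.

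The sP rats also differed from sNP rats in markers of the tissue's cells. Of 15 medium spiny neuron markers measured, 13 were lower in sP, beside 5.83% of all probe sets, and none higher, with a median difference of -0.94. The mean level of the 15 ran between 10.32 and 12.40 in sP rats, against 11.71 and 12.64 in sNP rats. Of 8 markers of the ventral pallidum, the septum and other basal forebrain, 3 were higher in sP, beside 7.08% of all probe sets, and their mean level ran between 7.37 and 8.32, against 6.79 and 7.83. Of 9 interneuron markers 2 were higher, with Pvalb at 1.07 ± 0.32, and 1 was lower. Astrocyte markers were higher for 5 of 11. All 14 markers of meninges, fibroblasts and mural cells had positive differences (median 0.33), 4 of them called. All 9 oligodendrocyte markers had positive differences too, 1 of them called, and 2 of 4 precursor markers were called higher. Of 8 endothelial markers 3 were called lower, with Vwf at -0.84 ± 0.10. The marker index, which subtracts the mean pallidal and septal marker level from that of spiny neurons, had medians of 4.12 in sP rats and 5.17 in sNP rats.

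The 3 called probe sets varied with that index. The index itself differed between the lines, with means of 3.54 in sP and 4.98 in sNP rats. As a covariate it therefore also takes out part of the line difference. Line and tissue cannot be told apart here, and the part of tissue in the 3 calls was not tested. The 4 rats with the lowest index, at 2.92 or less, were all sP, and the next rat was at 3.88. Those 4 had Slc32a1 at 11.70 to 11.90, whereas the other 5 sP rats had 11.42 to 11.58 and sNP rats 11.22 to 11.60. For Aldh5a1 the 4 had 12.25 to 12.33, the other sP rats 11.68 to 12.04 and sNP rats 11.32 to 11.97. For Gabbr2 the 4 had 11.78 to 11.96, the other sP rats 11.24 to 11.55 and sNP rats 10.88 to 11.58. With the index as a covariate the differences were 0.05 for Slc32a1, 0.05 for Aldh5a1 and 0.04 for Gabbr2. Of the 19, 0 were then called, beside 0.96% of all probe sets, where 12.9% were called without the covariate. With the Gapdh difference as a covariate the 3 differences were 0.21, 0.36 and 0.38, with adjusted p of 0.101, 0.0894 and 0.0938 by limma. Again 0 of 19 were called, beside 2.78% of all probe sets.

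**Figure D4:**
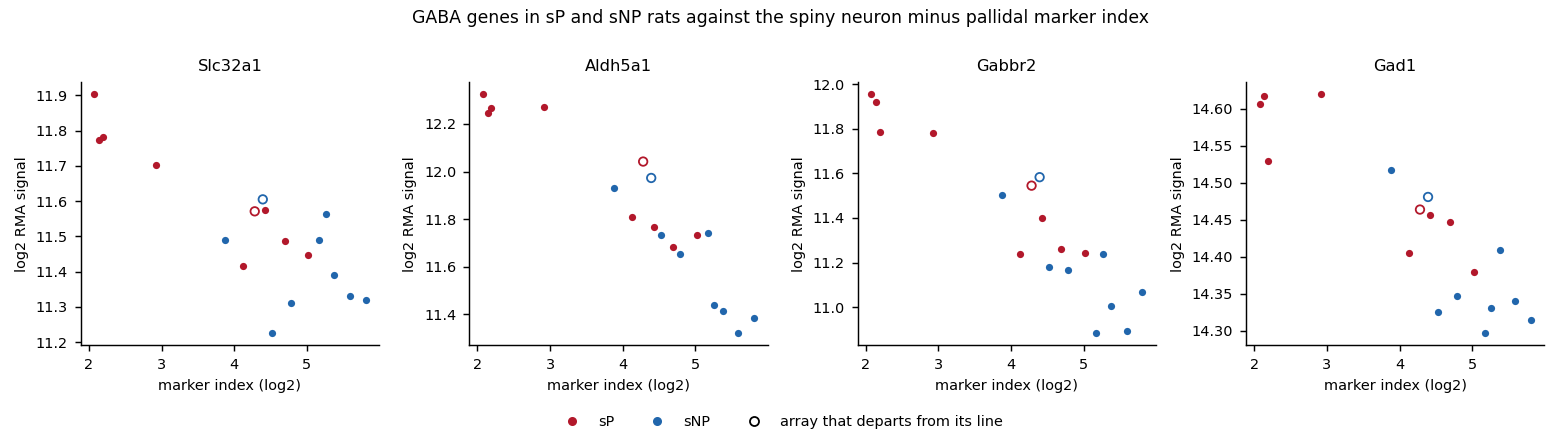
Log2 RMA signal (y axis) of Slc32a1, Aldh5a1, Gabbr2 and Gad1 in the 9 sP and 9 sNP rats against the marker index (x axis, log2). The 4 sP rats at the left, with an index of 2.92 or less, hold the 4 highest values of each gene, and the other 5 sP rats overlap the sNP rats.

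Whether the 5 pairs differed among themselves was tested with an F test on the same fit. Only Aldh5a1 1379900_at was called, 1 of 19 beside 11.7% of all probe sets, with F = 4.26 and an adjusted p of 0.0326. Its differences were -0.04 in P minus NP, 0.02 in HAD1 minus LAD1, -0.14 in HAD2 minus LAD2, 0.02 in AA minus ANA and 0.40 in sP minus sNP. With the marker index as a covariate the adjusted p was 0.162. Without departing arrays 2 of 19 were called, beside 17.5%, the second being Abat 1369799_at with adjusted p of 0.0244 against 0.0598 with all arrays.

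Abat gave pair differences that depended on the probe set. In HAD2 rats 1369799_at had 9.52, 9.65 and 9.91, against 9.69, 9.87 and 10.05 in LAD2 rats, a difference of -0.18 ± 0.05 (adjusted p = 0.069). In AA rats 1375321_at had 8.04, 8.95 and 9.46, against 8.20, 8.55 and 9.01 in ANA rats, a difference of 0.36 ± 0.14 (adjusted p = 0.33). The ranges overlapped in both pairs. Without AA 19, the lowest AA rat, and ANA 20, the AA difference was 0.42 ± 0.12 with an adjusted p of 0.049, beside 4.44% of all probe sets called. The other Abat probe sets differed between AA and ANA by -0.03 and -0.04. Among rats of the same line, 1369799_at and 1375321_at had a Pearson r of -0.21, whereas 1375321_at and 1391365_at had an r of 0.62.

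The 2 plasma membrane transporters among the members were dim and uneven between rats. Slc6a11 had line means between 5.05 in HAD1 and 5.75 in P, and no gap between neighbouring lines exceeded their SD. Within P the values ran between 4.95 and 6.84, and within NP between 5.12 and 6.26. Slc6a13, known from meninges and blood vessels in the brain, had line means between 6.47 in NP and 7.01 in sP, again with no gap beyond the SD. The sP mean rested on 1 rat, sP 7, at 9.13, since the next sP rat was at 7.09. AA rats had 6.54, 6.74 and 7.70, against 6.23, 6.58 and 6.79 in ANA rats, a difference of 0.27 ± 0.12 (adjusted p = 0.433). The array files used here hold no detection calls, so that no statement is made on presence.

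Which members vary together between rats was asked after the line means had been removed, with the brightest probe set of each gene and 36 gene pairs. Of these 20 passed an adjusted p of 0.05 on Pearson's r (100000 permutations within lines, two-sided, Benjamini-Hochberg over 36), 13 positive and 7 negative. The same count was not taken over pairs of other genes. It therefore does not show whether these genes vary together more than others do. Slc6a11 and Aldh5a1 had r = 0.82 and rho = 0.76, and Abat and Aldh5a1, the successive enzymes of GABA breakdown, had r = 0.75 and rho = 0.73. Both had a permutation p of 1e-05, the smallest that the permutations can give, and an adjusted p of 3.27e-05 for r and 3e-05 for rho. Without the 2 rats farthest from the median they were 0.79 and 0.73, and without the departing arrays 0.82 and 0.73. Gad1 varied with Aldh5a1 (r = 0.60, rho = 0.54) and with Abat (r = 0.53, rho = 0.49), both with adjusted p of 3.27e-05.

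The 2 decarboxylases had no correlation past the threshold, with r = 0.04 and rho = -0.005 for Gad1 and Gad2 (adjusted p = 0.842 and 0.966). The brightest probe sets of the 2 receptor subunits ran in opposite directions, with r = -0.47 and rho = -0.55 for Gabbr1 and Gabbr2 (adjusted p = 3.27e-05 and 3e-05), and r = -0.51 without the departing arrays. Gad2 and Gabbr2 had r = -0.43 and rho = -0.39 (adjusted p = 0.00054 and 0.00068). For the receptor subunits the sign depended on the Gabbr1 probe set. Gabbr2 1387383_at had r = -0.47 with 1388039_a_at, -0.40 with 1369371_a_at, -0.18 with 1369372_at, 0.04 with 1388030_a_at and 0.66 with 1375720_at, and the 2 brightest Gabbr1 probe sets, 1388039_a_at and 1375720_at, had r = -0.28 with each other. With the mean of all probe sets of a gene in place of the brightest, 13 of 36 pairs passed.

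The r of these relations was unequal between line pairs, without a test of that inequality. The spread within lines was unequal too. For Slc6a11 the SD ran between 0.0748 and 0.256 in the 4 HAD and LAD lines, against 0.265 to 0.622 in the other 6. For the marker index it ran between 0.231 and 0.694, against 0.627 to 2.02. The part of spread, low signal and RNA quality in r was not tested. For Slc6a11 and Aldh5a1 r was 0.95 in P/NP, 0.86 in AA/ANA and 0.88 in sP/sNP, but -0.05 in HAD1/LAD1 and 0.32 in HAD2/LAD2. For Abat and Aldh5a1 it was 0.84, 0.82 and 0.87, against 0.53 and 0.26 in the 2 HAD and LAD pairs. For Gabbr1 and Gabbr2 r was negative in all 5 pairs, between -0.81 in P/NP and -0.30 in HAD1/LAD1. The count of gene pairs past 0.05 was 27 within P/NP, 19 within sP/sNP, 7 within AA/ANA, 5 within HAD2/LAD2 and 1 within HAD1/LAD1.

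Many of the members also followed the marker index between rats of a line, in a family of 45 relations of 9 genes with 5 marker scores, chosen after seeing the data. Slc6a11 had r = -0.78 and rho = -0.74, Aldh5a1 r = -0.77 and rho = -0.74, and Gabbr2 r = -0.72 and rho = -0.80, each with an adjusted p of 3.46e-05 for r. Without the 2 farthest rats r was -0.78, -0.81 and -0.70. Gabbr2 reached -0.97 within P/NP and -0.88 within sP/sNP, and had -0.41, -0.77 and -0.62 in HAD1/LAD1, HAD2/LAD2 and AA/ANA. Slc6a11 had -0.89, -0.86 and -0.75 in P/NP, AA/ANA and sP/sNP, but 0.02 in HAD1/LAD1 and -0.05 in HAD2/LAD2. Aldh5a1 had -0.83, -0.85 and -0.89 in those 3 pairs, but 0.21 in HAD1/LAD1 and -0.43 in HAD2/LAD2. Abat, with r = -0.46 over all, had the opposite sign in HAD1/LAD1 and HAD2/LAD2, at 0.47 and 0.54. Of these 4 genes only Gabbr2 thus kept 1 sign in all 5 pairs. Gabbr1 1388039_a_at and Gad2 went the other way. Gabbr1 had r = 0.35 and rho = 0.48, and Gad2 had r = 0.36 and rho = 0.28 (adjusted p = 0.00362 for r). Within pairs Gad2 had 0.74 in P/NP, 0.38 in HAD1/LAD1 and 0.43 in sP/sNP, but -0.32 in HAD2/LAD2 and -0.08 in AA/ANA. Gad1 had r = -0.47 and rho = -0.51 over all. With the index removed, 10 of the 36 gene pairs passed, among which Slc6a11 and Aldh5a1 kept r = 0.54 and Abat and Aldh5a1 r = 0.70, while Aldh5a1 and Gabbr2 had r = -0.03 in place of 0.54.

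Slc6a13 tracked a different score. With the mean of 14 markers of meninges, fibroblasts and mural cells it had r = 0.64 and rho = 0.35 (adjusted p = 3.46e-05 and 0.00204). The relation weakened to r = 0.45 without the 2 rats farthest from the median. Within pairs it was 0.87 in sP/sNP and 0.76 in AA/ANA, 0.30 in P/NP, 0.19 in HAD2/LAD2 and -0.14 in HAD1/LAD1.

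**Figure D5:**
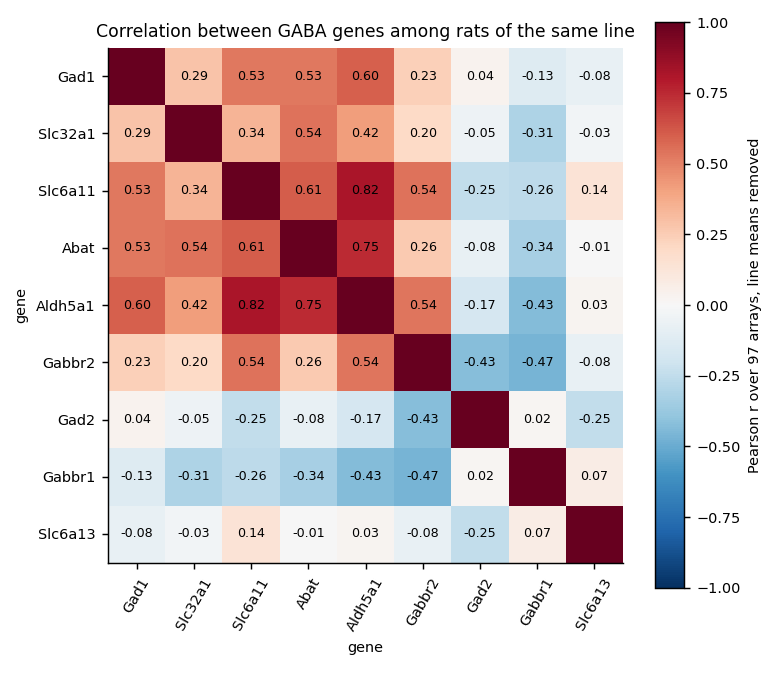
Pearson r between the brightest probe sets of the 9 genes over 97 rats after removal of line means (colour and number; both axes list the genes). Gad1, Slc32a1, Slc6a11, Abat and Aldh5a1 form a block of positive r between 0.29 and 0.82, Gabbr1 is negative against all 5, and Gad2 and Slc6a13 have r between -0.25 and 0.14 with them.

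The genes outside the members that followed each one most closely between rats of a line were read off the same residuals, over 97 arrays, as a description. Gabbr2 was followed by Igsf21 (r = 0.93), Car10 (r = 0.93) and Olfm1 (r = 0.92). Aldh5a1 was followed by Hsd17b12 (r = 0.90), and Slc6a11 by Phlda3 (r = 0.84) and Htr7, a serotonin receptor (r = 0.84). Slc6a13 was followed by Slc13a4 (r = 0.82), Cdh1, an epithelial cadherin (r = 0.80), and Serpinf1 (r = 0.80), which were 0.61, 0.62 and 0.61 without the 2 farthest rats. Abat had Thap4 (r = 0.81), Gabbr1 had Smarcd1 (r = 0.80), Slc32a1 had Gps1 (r = 0.75), Gad1 had Rnf128 (r = 0.72) and Gad2 had Zbtb20 (r = 0.62). Gad2 thus had the weakest closest partner of the 9.

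Among the other genes of the pathway, 11 of 14 listed genes of GABA precursor supply and cofactor were measured, with the brightest probe set of each. They gave no call in P against NP, HAD1 against LAD1 or AA against ANA, beside 1.05%, 1.2% and 2.35% of all probe sets. In HAD2 against LAD2, 2 were lower, Got2 at -0.17 ± 0.04 and Got1 at -0.28 ± 0.08, which encode the mitochondrial and cytosolic aspartate aminotransferases, beside 2.48% of all probe sets called lower. In the same pair 5 of 9 oligodendrocyte markers were called lower and all 9 had negative differences (median -0.31), with a mean level of 11.07 to 11.47 in HAD2 rats, against 11.30 to 12.06 in LAD2 rats. Of 8 endothelial markers 3 were called lower and 1 higher, and their mean level ran between 9.17 and 9.42 in HAD2 rats, against 9.17 and 9.55 in LAD2 rats. The part of these cells in the Got1 and Got2 differences was not tested. In sP against sNP, 4 of 11 were higher, beside 7.08% of all probe sets, with a list median of 0.19, among them the glutamine transporters Slc38a2 at 0.34 ± 0.08 and Slc38a1 at 0.39 ± 0.11 and the glutaminase Gls2 at 0.45 ± 0.14 (adjusted p = 0.0141, 0.0307 and 0.0419). Got2 was the fourth at 0.24 ± 0.07, opposite in sign to HAD2 minus LAD2, and its difference varied between pairs (interaction adjusted p = 0.00665). The dimmer Got2 probe set, 1389871_at, showed neither, at 0.03 in sP minus sNP and -0.01 in HAD2 minus LAD2 (adjusted p = 0.89 and 0.993). In the average of 5 pairs, Slc38a2 was higher by 0.13 ± 0.03 (adjusted p = 0.0219, and 0.0187 without the departing arrays), the 1 of 11 called, beside 1.78% of all probe sets called higher. With the 5 differences as the replicates limma gave an unadjusted p of 0.0938 and an adjusted p of 0.948. Slc38a2 was then not called, but neither was any of the 31042 probe sets. With the marker index as a covariate the average was 0.08 (adjusted p = 0.0383).

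A dimmer probe set of Slc38a1, 1370409_at, was singled out after its values were seen. In HAD2 rats it had 8.22, 8.97 and 9.15, against 7.80, 8.18 and 8.40 in LAD2 rats. The ranges overlapped only between 8.22 and 8.40, and the difference was 0.72 ± 0.10 (adjusted p = 3.82e-05). The other pairs had 0.35 ± 0.12 in P minus NP (adjusted p = 0.28) and between -0.06 and -0.01 elsewhere, and the differences varied between pairs (interaction adjusted p = 2.3e-06). The bright Slc38a1 probe set, 1372921_at, differed between HAD2 and LAD2 by 0.13 ± 0.06 (adjusted p = 0.265) and was called in sP against sNP, where 1370409_at was not.

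Of 21 listed auxiliary subunits and effectors of the GABA-B receptor 17 were measured. Kctd12, which encodes a cytosolic protein bound to Gabbr2 that speeds desensitization of the receptor, was lower on average over the pairs, at -0.16 ± 0.04 (adjusted p = 0.00165, and 0.000249 without the departing arrays), the 1 of 17 called, beside 1.59% of all probe sets called lower. With the 5 differences as the replicates limma gave an unadjusted p of 0.0591 and an adjusted p of 0.948. Kctd12 was then not called, but neither was any of the 31042 probe sets. With the marker index as a covariate the average was -0.14 (adjusted p = 0.00413). Of 9 microglia markers 3 were called lower in the same average, Cx3cr1 at -0.17, C1qa at -0.20 and Ctss at -0.14, beside the 15 spiny neuron markers with negative differences, and the part of microglia was not tested. AA rats had 11.06, 11.30 and 11.73, against 11.36, 11.54 and 12.07 in ANA rats, and sP rats had 11.33, 11.68 and 12.01, against 11.73, 12.07 and 12.25 in sNP rats. These 2 pairs overlapped only in part. The differences were -0.21 ± 0.08 in P minus NP, -0.03 ± 0.07 in HAD1 minus LAD1, 0.08 ± 0.06 in HAD2 minus LAD2, -0.30 ± 0.09 in AA minus ANA and -0.35 ± 0.10 in sP minus sNP. Only the last passed in its own pair (adjusted p = 0.0328), AA minus ANA passed without its departing arrays (adjusted p = 0.00747), and the pairs differed among themselves (interaction adjusted p = 0.00954). A second Kctd12 probe set, 1382535_at, averaged -0.22 with an adjusted p of 0.109.

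In sP rats Gnb5 at -0.28 ± 0.08, a G protein beta subunit, and Jakmip1 at -0.39 ± 0.12, a protein that binds Gabbr1, were also lower (adjusted p = 0.0302 and 0.0389), so that with Kctd12 3 of 17 were called lower, beside 5.83% of all probe sets. The other Jakmip1 probe set, 1374928_at, differed by -0.03 (adjusted p = 0.826). The transcription factor Atf4 was higher there by 0.43 ± 0.13 (adjusted p = 0.037), the 1 of 17 called higher, beside 7.08% of all probe sets. In HAD2 rats Atf5 was the 1 of 17 called, lower at -0.20 ± 0.05 (adjusted p = 0.0221), beside 2.48% of all probe sets called lower. The 8 measured genes of 11 listed for other GABA transport, alternative synthesis and handling of the decarboxylases gave no call in any pair or in the average. Of all probe sets, 1.05% to 12.9% were called in the pairs and 3.37% in the average. Without sP 4 and sNP 4 the 8 calls of these lists in sP against sNP held, with adjusted p between 0.00846 and 0.0364, beside 15% of all probe sets called. These calls stand beside the shifts in cell markers of sP rats given above, and the part of those shifts in them was not tested.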

How the data were processed

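Trizol and RNeasy columns were used for extraction, per the labels' protocols, and 25 ng of total RNA was amplified in 2 cycles and labelled with biotin. Per the submitters' processing notes the authors summarised the arrays with RMA (version not given in the sources used here), and the deposited values are log2 signals, used without further scaling. The 57 AFFX controls were left out. Members and lists were chosen with earlier results of these data known. Each pair was fitted with limma 3.58.1 in R 4.3.3 (lmFit, eBayes, two-sided) on its own 2 lines, as the line bred for high intake minus its partner, with Benjamini-Hochberg adjustment over 31042 probe sets. A fit with 1 mean per line over all 97 arrays gave the average of the 5 pairs and the F test of their differences. Named genes are the members, for each member the 3 genes of highest r (up to 3 printed), and up to 4 listed pathway genes per comparison by adjusted p. Correlations used numpy 2.4.6 with permutations within lines. The fits were tested on simulated data. Rats of a line are the replicates, since the labels number separate animals. The number of arrays limits the precision. Alternatives were other scaling, a filter on dim probe sets, another variance model, covariates, lines as replicates and arrays left out. Animal numbers are shared between the lines of P/NP and sP/sNP. Same-numbered rats had r between -0.591 and 0.774 in P/NP, over 0.1 in 6 of 10 numbers. In sP/sNP r was between -0.22 and 0.56, over 0.1 in 5 of 9. The labels do not call same-numbered rats pairs, and these values do not settle whether they are. The main fits used no pairing, and the number was used as a block in an alternative.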

Additional observations from a re-analysis of the deposited data

Results flagged for a closer look

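The difference of Aldh5a1 1379900_at between the lines varied over the 5 pairs, by a test of that difference itself (limma interaction F test, adjusted p = 0.0326).

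Single rats lay far from the rest of their line in 16 of 190 groups of 1 probe set and 1 line, or 8.42%, where chance alone gives about 1 in 20. The values are the gap to the nearest rat as a share of the line's range. Departing arrays account for 5 of them. ANA 20 was lowest of its line for Slc32a1 (0.776, at 11.41 with the next at 12.28) and for Aldh5a1 1371062_at (0.518), P 9 was lowest for Gad1 1370760_a_at (0.482), NP 9 was lowest for Gabbr1 1388030_a_at (0.542), and LAD1 37 was highest for Gabbr2 1387383_at (0.57). The other arrays were not departing. In sP 7, Slc6a13 was highest with a gap of 0.734. In sNP 2, Abat 1391365_at was lowest (0.738, at 6.67 with the next at 8.06), and in LAD1 35 it was highest (0.54). Slc32a1 was lowest in LAD2 20 (0.469), Aldh5a1 1379900_at was lowest in HAD2 5 (0.501), and Aldh5a1 1391657_at was lowest in LAD1 32 (0.638). Gabbr1 1388030_a_at was highest in AA 15 (0.526) and sP 2 (0.522) and lowest in sNP 1 (0.611). Gabbr2 1368952_at was highest in P 5 (0.553) and lowest in ANA 14 (0.567).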

How the results depend on the processing

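Counts below are of the 19 member probe sets called by limma, or of the 36 gene pairs that passed. Percentages are the share of all probe sets called in the same setting. In P against NP and HAD1 against LAD1 the count stayed at 0 under every alternative run. The share ran between 0.58% and 3.09% in P against NP, and between 0.374% and 3.98% in HAD1 against LAD1. With all arrays the counts were 0 in HAD2 against LAD2 (4.6%), 0 in AA against ANA (2.35%) and 3 in sP against sNP (12.9%). They were 0 in the average (3.37%), 1 in the F test between pairs (11.7%) and 20 for the correlations. Without the departing arrays the counts were 1 in AA against ANA (4.44%), 2 in the average (4.94%) and 2 in the F test (17.5%). HAD2 against LAD2 has no departing array. With the marker index as a covariate the count was 1 in HAD2 against LAD2 (5.79%), Abat 1369799_at with an adjusted p of 0.016. It was 0 in sP against sNP (0.96%), 1 in the average (4.49%), which was Gabbr1 1388030_a_at, and 0 in the F test (12.1%). With the Gapdh covariate the counts were 0 in sP against sNP (2.78%) and 1 in the average (3.7%). With the filter on dim probe sets the average had 1 (4.43%), Gad2 with an adjusted p of 0.0483. Correlations past the threshold numbered 13 with the mean of all probe sets, 10 with the index removed, and 1, 5 and 7 within HAD1/LAD1, HAD2/LAD2 and AA/ANA. With 1 array left out in turn, the count ran between 0 and 1 in HAD2 against LAD2. It was 1 without HAD2 8, HAD2 9, LAD2 12 or LAD2 18 (4.1% to 4.16%). In AA against ANA it also ran between 0 and 1, and was 1 without AA 19 (3.48%). It stayed at 0 in P against NP and in HAD1 against LAD1, and ran between 0 and 5 in sP against sNP. The sP count was 0 without sP 2, 5, 8 or 9 or sNP 1, 3, 5 or 9 (3.32% to 4.25%). It was 1 without sNP 6 (7.66%) or sNP 7 (9.18%), and 5 without sNP 4 (16.8%). With 1 pair left out in turn the average had 0 to 1, the 1 being Gad2 without sP and sNP (adjusted p = 0.0372, 2.76% of all called). Differences with an unadjusted p under 0.05 kept their sign in every setting run. Of all 76 member differences in the 4 pairs with departing arrays, 6 changed sign without them, each of at most 0.0512 in size, as did 2 of 19 averages, of at most 0.0125. With median centring 2 were called in sP against sNP (12.3%), and Slc32a1 was not (adjusted p = 0.0646). With the spread shared over 10 lines, the 3 called there (10.4%) were Aldh5a1 1379900_at, Gad1 1368344_at and Abat 1369799_at (adjusted p = 0.00689, 0.0485 and 0.033). Slc32a1 and Gabbr2 1387383_at then had 0.186 and 0.147. The causes were not tested, apart from the fewer probe sets of the filter. With the animal number as a replicate block the counts were 0 in P against NP (0.635%) and 4 in sP against sNP (16.2%). Abat 1369799_at was the fourth (adjusted p = 0.0354). Same-numbered rats correlated between -0.591 and 0.774 in P/NP and between -0.22 and 0.56 in sP/sNP. Of the P rats 4 of 10, and of the sP rats 2 of 9, correlated best with their own number. These values do not settle whether the numbers mark pairs, and the main fits did not use them.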
